A study of Mus musculus with 6 samples.

Results

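The baseline transcriptome of leptotene/zygotene (L/Z) spermatocytes was described from the 3 control libraries of a series of 6 samples. The libraries were chosen by their labels alone, and no measured value entered the choice. L/Z spermatocytes had been sorted by flow cytometry, with a Hoechst DNA dye, from testes of mice aged 12 days postpartum (dpp), when the first wave of spermatogenesis has brought many germ cells into early meiotic prophase. The other 3 libraries came from mice lacking Eef1g in germ cells and entered no value below. The control mice were labelled Wild type, and the study names C57BL/6J as its background strain; whether the control mice carried the conditional Eef1g allele or the Stra8-GFPCre driver was not given in the sources used here. Polyadenylated RNA was amplified as full-length cDNA without molecular identifiers, so amplification copies of 1 molecule counted as separate reads, and every limit given for a low count covers counting error only. The control testes came from littermates of the mutant mice, and nothing ties a replicate number to a mouse or litter, so SD values cover the spread between these libraries, which may be technical.

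Leptotene is the stage at which chromosomes condense along a protein axis and programmed DNA breaks are made. In zygotene the broken ends search for the homologous chromosome with recombinases such as DMC1, telomeres attach to the nuclear envelope, and the synaptonemal complex begins to join the paired axes. The transcripts for this machinery are known to accumulate around meiotic entry under STRA8 and MEIOSIN, while many gene products needed for sperm formation appear only after pachytene. Sertoli cells are the somatic supporting cells of the seminiferous tubule and surround germ cells of all stages.

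Of the 6 genes named as markers of these cells, Dazl encodes an RNA-binding protein and the other 5 belong to that machinery, and the 250 bases before their transcription starts are shown because these genes were among the most abundant or most stable transcripts of the libraries. The windows were taken from RefSeq on GRCm38.p6, and each is written 5′ to 3′ on the strand of its gene. Capitals mark matches on either strand to TTCCCGC, the core of the element bound by E2F factors, or to CACGTG, the palindromic E-box. The Sycp1 window lies at chr3:102936101-102936350 on the minus strand and the Sycp3 window at chr10:88459337-88459586 on the plus strand.
Sycp1: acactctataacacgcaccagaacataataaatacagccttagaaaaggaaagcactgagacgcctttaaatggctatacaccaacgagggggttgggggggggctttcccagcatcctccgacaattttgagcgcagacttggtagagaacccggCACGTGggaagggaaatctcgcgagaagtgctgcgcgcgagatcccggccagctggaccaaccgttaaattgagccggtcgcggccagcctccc
Sycp3: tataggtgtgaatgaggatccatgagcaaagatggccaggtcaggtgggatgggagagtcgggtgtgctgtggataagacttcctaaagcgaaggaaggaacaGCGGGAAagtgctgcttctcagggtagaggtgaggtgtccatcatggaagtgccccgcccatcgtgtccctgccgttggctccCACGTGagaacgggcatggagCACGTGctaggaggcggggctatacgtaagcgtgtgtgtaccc
The Smc1b window lies at chr15:85131958-85132207 on the minus strand and the Hormad1 window at chr3:95559427-95559676 on the plus strand.
Smc1b: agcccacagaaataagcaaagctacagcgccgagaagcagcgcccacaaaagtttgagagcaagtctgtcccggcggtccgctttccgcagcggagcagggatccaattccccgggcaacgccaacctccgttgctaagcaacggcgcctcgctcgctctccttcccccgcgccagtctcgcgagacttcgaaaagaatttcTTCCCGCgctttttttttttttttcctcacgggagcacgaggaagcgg
Hormad1: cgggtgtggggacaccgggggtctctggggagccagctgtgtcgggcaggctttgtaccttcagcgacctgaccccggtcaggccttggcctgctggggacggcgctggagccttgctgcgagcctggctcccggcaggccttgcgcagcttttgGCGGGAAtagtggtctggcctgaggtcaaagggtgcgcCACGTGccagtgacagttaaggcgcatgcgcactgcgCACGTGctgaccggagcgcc
The Dazl window lies at chr17:50293621-50293870 and the Dmc1 window at chr15:79605110-79605359, both on the minus strand.
Dazl: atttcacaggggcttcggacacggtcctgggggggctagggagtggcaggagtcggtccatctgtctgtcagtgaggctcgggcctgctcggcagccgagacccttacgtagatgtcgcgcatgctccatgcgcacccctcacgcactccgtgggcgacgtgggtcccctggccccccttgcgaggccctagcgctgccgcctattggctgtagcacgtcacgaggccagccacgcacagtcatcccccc
Dmc1: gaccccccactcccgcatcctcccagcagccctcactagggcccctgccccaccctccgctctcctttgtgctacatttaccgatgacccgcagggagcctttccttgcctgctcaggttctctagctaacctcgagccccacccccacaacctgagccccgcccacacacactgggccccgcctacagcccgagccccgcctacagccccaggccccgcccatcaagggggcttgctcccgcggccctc

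Hormad1 and Sycp3 each held 1 E2F core and 2 E-boxes in these 250 bases, Smc1b held 1 E2F core, Sycp1 held 1 E-box, and Dazl and Dmc1 held neither sequence. Of 51 genes of the 7 meiotic lists described below that had a RefSeq window, 12 held the E2F core (23.5%) and 11 held the E-box (21.6%). The same sequences occurred in 5.14% and 6.82% of the windows of 16801 nuclear protein-coding genes, and in 1.47% and 3.76% of the 5378 windows whose genes had no read in any control library. Among the 399 windows of the 500 nuclear protein-coding genes with the highest level, the shares were 11.0% and 11.8%. Among the gene sets compared, the E-box was most frequent in the list of germ cell RNA regulators, in 6 of 13 windows. The MYB sequence AACTGNC was found in 7 of the 51 meiotic windows (13.7%) against 9.90% of all windows and 21.2% of the 33 windows of the 4 somatic lists, the full cAMP response element TGACGTCA in 1 (1.96%) against 2.06%, and the TATA sequence TATAAA in 3 (5.88%) against 12.1%. In windows of genes with no read TATAAA was found in 22.3%. The median share of G and C was 58.8% in windows of the meiotic lists, 59.6% in those of the 500 genes with the highest level, 64.0% for the germ cell RNA regulators, 56.0% over all windows and 47.2% for genes with no read. These are matches of letters on both strands and not measured binding.

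The 3 libraries held 1265850, 1834558 and 1677464 reads assigned to genes in replicates 1, 2 and 3. Levels are given as CPM, the reads of a gene per 1000000 assigned reads of its library, and between genes as RPKM, which is CPM divided by the length of the gene in kilobases as listed beside the counts. A count of 3 reads, taken as the detection floor, corresponded to 2.37, 1.64 and 1.79 CPM. Genes with exactly 2 reads outnumbered genes with exactly 1 read in every library, 1758 against 1194 in replicate 1, 1738 against 1069 in replicate 2 and 1579 against 1073 in replicate 3; whether both ends of a read pair were counted was not stated. Of 54532 genes listed, 19585 had a read in at least 1 control library, 11798 had a read in all 3, and 39955 were at or under 3 reads in all 3.

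Each library contained 14903, 15761 and 15333 genes with at least 1 read, with the highest number in the deepest library. After every library was thinned to 1265850 reads the numbers were 14903, 15219 and 14938. The mean number of detected genes was 15332 ± 429 (SD, n = 3) before thinning and 15020.0 ± 173 after it, of which 12269.7 ± 250.2 before thinning were nuclear protein-coding genes. By level, 9425 of 22033 nuclear protein-coding genes had a mean of at least 1 RPKM, 3834 reached 10 RPKM, 416 reached 100 RPKM and 22 reached 1000 RPKM.

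Nuclear protein-coding genes took 82.0%, 82.2% and 84.7% of the reads. The mitochondrial genome took 8.48%, 10.3% and 9.12%, most of it from its own rRNA genes at 7.31%, 8.58% and 7.73%, and its protein-coding genes added 1.18%, 1.76% and 1.39%. Nuclear rRNA was the least even class, with 6.29% in replicate 1, 4.19% in replicate 2 and 2.80% in replicate 3. Processed pseudogenes held 1.59% ± 0.115 of the reads and long noncoding RNA genes 1.01% ± 0.0160 (SD, n = 3). The shares of protein-coding, mitochondrial and rRNA reads are drawn to scale in the bar chart of library composition.

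**Figure D1:**
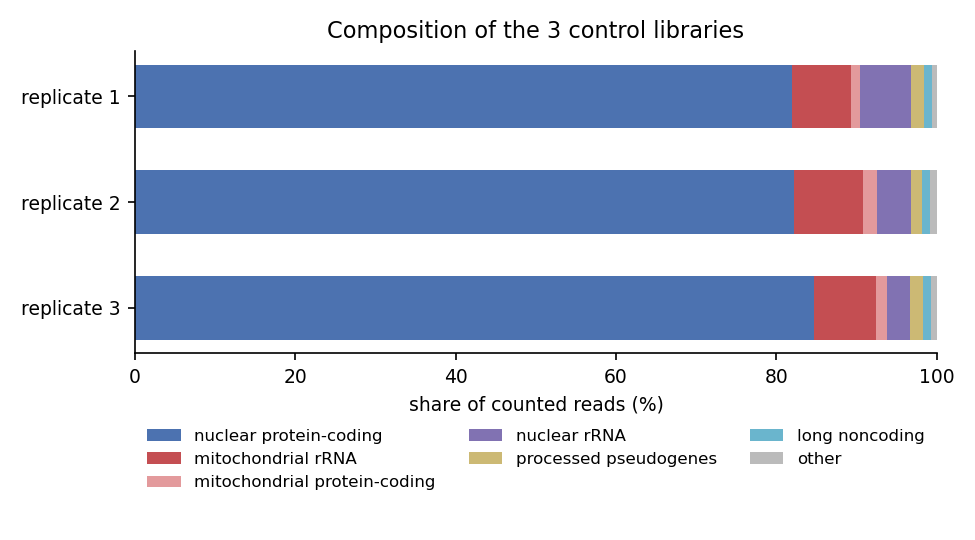
Share of counted reads in percent by class of gene, 1 bar for each of the 3 control libraries. Nuclear protein-coding genes fill 82.0% to 84.7% of each bar, and the nuclear rRNA segment shrinks from 6.29% in replicate 1 to 2.80% in replicate 3.

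The 3 single genes with the most reads were rRNA genes. mt-Rnr2, the large mitochondrial ribosomal RNA, had 59291, 65710.1 and 60341 CPM, the nuclear rRNA gene CT010467.1 had 62870.0, 41926 and 28008 CPM, and mt-Rnr1, the small mitochondrial ribosomal RNA, had 13778, 20042 and 16943 CPM. CT010467.1 accounted for nearly all reads of nuclear rRNA, with 66.4% of its 50-base windows shared with another annotated gene. These 3 genes together held 13.6%, 12.8% and 10.5% of the reads. Among mitochondrial mRNAs, mt-Cytb, a subunit of complex III, was highest by mean CPM with 3413, 4499.7 and 2856, and its range overlapped those of the complex I subunit mt-Nd1 with 2406, 3462 and 3188, which was higher in replicate 3, and of the complex IV subunit mt-Co1 with 2375, 3293 and 2374.

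Hsp90aa1, a stress-inducible cytosolic chaperone also known for its use in male germ cells, had the most reads of any nuclear protein-coding gene, with 7829, 6276 and 5312 CPM. It was highest in replicate 1 and lowest in replicate 3, and 58.5% of its windows were shared with other annotated genes. Dazl, a germ cell RNA-binding protein that promotes translation, followed with 5556, 6036 and 6527 CPM, and Sycp1, which forms the transverse filaments of the synaptonemal complex, with 4983, 5454 and 5574 CPM. The ranges of Dazl and Sycp1 overlapped, and that of Hsp90aa1 overlapped both. Ptma, an acidic chromatin protein of dividing cells, had 4947 ± 531 CPM, the transcriptional coactivator Sub1 had 4048 ± 594, the chromatin protein Hmgb2 had 3718 ± 346, the RNA-binding protein Hnrnpa2b1 had 3169 ± 339, the poly(A)-binding protein Pabpc1 had 3090.1 ± 248 and the nucleolar chaperone Npm1 had 2555 ± 86.2 (SD, n = 3).

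Reads were spread over many genes. The 10 most abundant nuclear protein-coding genes held 5.05% ± 0.162 of all nuclear protein-coding reads, the top 100 held 18.1% ± 0.245 and the top 1000 held 54.2% ± 0.243 (SD, n = 3).

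Once gene length was taken into account, short transcripts moved to the top. Of the 20 nuclear protein-coding genes with the highest mean RPKM, 9 were also among the 20 highest by CPM. Rplp1, an acidic protein of the ribosomal stalk, led with 4124, 3336 and 3449 RPKM, followed by Ptma with 3636, 2967 and 3547 RPKM. The third was the 102-base model Gm11032, whose 1889.8, 2485 and 3758 RPKM rested on 244, 465 and 643 reads and 67.9% of whose windows were shared. Further ribosomal protein genes in this group had means from 1141 RPKM for Rps27a to 2081 for Rps3a1 (Rps21, Rps23, Rps14 and Rpl26 between them), and Rps27l, a ribosomal protein paralog, had 1815 ± 275 RPKM. Subunits of the mitochondrial respiratory chain and ATP synthase were Usmg5 at 2359.7 ± 329 RPKM, the X-linked Ndufa1 at 1666 ± 180, Ndufa2 at 1172 ± 149 and Cox7c at 1115 ± 145, and the shared RNA polymerase subunit Polr2k stood at 1177 ± 171. The level of Usmg5 rested on a listed length of 341 bases; with its longest annotated transcript of 2733 bases, a length chosen after seeing the data, it was 294 RPKM, and 16 of the 20 genes were again among the 20 highest.

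Only 3 genes specific to germ cells or meiosis were among these 20. Dazl (ENSMUSG00000010592, chr17:50279395-50293636) had 1454, 1580.2 and 1709 RPKM, Sycp1 (ENSMUSG00000027855, chr3:102818499-102936100) had 1401, 1534 and 1568, and Sycp3 (ENSMUSG00000020059, chr10:88459569-88473236), a lateral element protein, had 1012, 1194 and 1122. They ranked 10, 11 and 20, or 9, 16 and 25 with the longest transcript as length. For Dazl and Sycp1 the 3 libraries stayed close together, with SDs of 127 and 87.9 RPKM, and 50.4% of the Sycp3 windows were shared with another annotated gene.

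**Figure D2:**
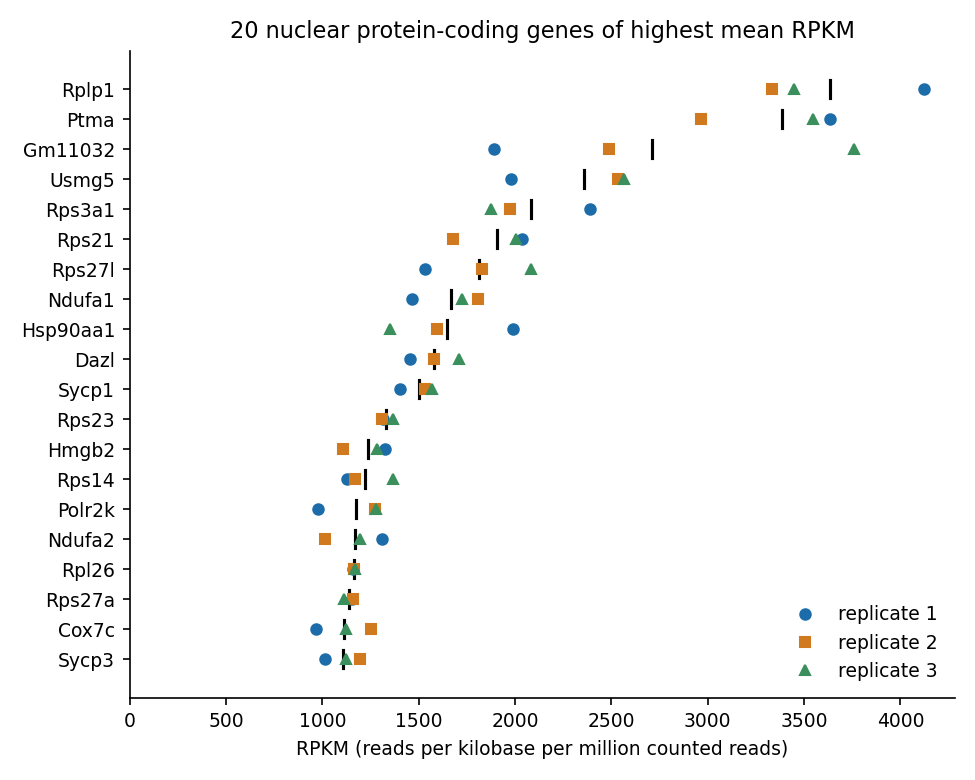
RPKM of the 20 nuclear protein-coding genes with the highest mean, with 1 point for each control library and a black bar at the mean of 3. Dazl, Sycp1 and Sycp3 lie between 1012 and 1709 RPKM among ribosomal protein, respiratory chain and chromatin protein genes.

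Synaptonemal complex genes had the highest median level of the germ cell lists. All 8 members had a read in every library, 7 of them had a mean of at least 100 RPKM, and their summed level was 9721, 10869 and 10719 CPM, about 1.04% of all reads. Their median was 272 ± 4.86 RPKM (SD, n = 3), against 0.354 ± 0.0225 for all 22033 nuclear protein-coding genes, of which 46.9% had a read in every library. Tex12, of the central element, had 365, 519 and 471 RPKM, and its partners Syce3 and Syce2 had means of 275 ± 33.8 and 184 ± 26.6. Sycp2, the lateral element partner of Sycp3, had 257, 298 and 255 RPKM. The central element gene Six6os1, listed as 4930447C04Rik, had 169, 168 and 183 RPKM. Syce1, which holds the central element to the transverse filaments, was the lowest member, with 51.4, 62.7 and 42.1 RPKM, and its range lay below those of all the others.

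The chromosome axis list was divided. Hormad1 (ENSMUSG00000028109, chr3:95559677-95587671), an axis protein that recruits the break machinery and monitors synapsis, had 406, 581 and 492 RPKM, lowest in replicate 1. Smc1b (ENSMUSG00000022432, chr15:85064689-85131964), the meiotic SMC subunit of cohesin, had 255, 322 and 281 RPKM. Hormad2 and the cohesin subunit Stag3 were more than 10 times lower than Hormad1, with 20.9 ± 2.78 and 20.5 ± 3.34 RPKM. Rad21l, a meiotic kleisin, was variable, with 23, 80 and 19 reads and 14.7 ± 10.3 RPKM.

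Rec8, the meiotic kleisin that replaces RAD21 and is cleaved at the meiotic divisions, was close to the floor, with 0, 5 and 2 reads over a listed length of 2935 bases. None of its 50-base windows was shared with another annotated gene and no other gene of the table overlapped it. The mitotic kleisin Rad21 had 1057, 1249 and 1470 reads in the same libraries. Sycp2l, an oocyte axis protein, had no read in any library.

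Genes for making DNA breaks were expressed at lower levels, with a median of 11.6 ± 2.66 RPKM and none at 100 RPKM. Present in every library were 9 of 9, against 46.9% of all nuclear protein-coding genes. Ankrd31, which helps to place breaks, was highest with 53.8, 51.9 and 51.5 RPKM, and Iho1, an axis-bound partner of MEI4, had 53.3, 36.6 and 38.2. Spo11, the enzyme that cuts DNA, had 31.0, 21.8 and 25.4 RPKM on 154, 157 and 167 reads, and its partner Top6bl, listed as Gm960, had 8.94 ± 1.08. The hotspot factor Prdm9 had 10.1, 16.1 and 9.96 RPKM, and Zcwpw1, a reader of its histone marks, had 15.2 ± 2.94. Mei4, Rec114 and Mei1 were low and highest in replicate 2, with 29, 92 and 42 reads, 4, 24 and 10 reads, and 4, 32 and 17 reads.

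Strand exchange genes had a median of 29.2 ± 1.94 RPKM. Of 12 members, 11 had a read in every library (91.7%, against 46.9% of all nuclear protein-coding genes). Dmc1 (ENSMUSG00000022429, chr15:79561497-79605109), the meiotic recombinase, was among the most even genes of its level, with 154, 150.0 and 158 RPKM. Sfr1, a cofactor of strand exchange, was higher with 233, 272 and 282 RPKM. The single-strand binding protein Meiob had 63.1, 83.5 and 107 RPKM, Rad51ap2 had 67.4, 80.9 and 62.0, and Mnd1, which with Psmc3ip stabilises recombinase filaments, had 62.3, 43.0 and 79.0. The ranges of these 3 genes overlapped. Spata22, the partner of MEIOB, had 0, 1 and 1 read. Its span overlaps the annotated gene Gm49340, and 79.7% of its windows were shared with another annotated gene, so its level is uncertain.

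Genes acting later, in crossover formation, had the lowest median of the meiotic lists, 5.36 ± 0.451 RPKM. The spans of 10 of the 11 overlap another gene, and without these the mean list sum fell from 908 to 22.5 CPM. A read in every library was found for 10 of 11 (90.9%, against 46.9% of all nuclear protein-coding genes), and 3 of 11 reached 10 RPKM. Those were the X-linked Tex11 with 61.9, 67.1 and 79.0 RPKM, the helicase Hfm1 with 56.1, 62.4 and 61.2, and Ccnb1ip1, which limits crossover intermediates, with 45.7, 33.9 and 52.9. The MutS genes Msh4 and Msh5 were at 6.60 ± 1.21 and 4.08 ± 0.186 RPKM, Mlh3 at 5.37 ± 1.70, and Rnf212 at 6.44 ± 1.92. Cntd1 had 6 reads in replicate 1 and none in the other libraries. One listed gene, Spo16, was not matched to a symbol and has no value.

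Telomere attachment genes had a median of 29.4 ± 4.48 RPKM. All 6 members were present in every library, against 46.9% of all nuclear protein-coding genes. Terb1 and Terb2, which with Majin tether telomeres to the inner nuclear membrane, had 41.1 ± 2.6 and 35.9 ± 7.54 RPKM and Majin 6.73 ± 0.776. Spdya, a partner of CDK2 at telomeres, had 27.7, 51.6 and 46.9 RPKM, Sun1, which spans the inner membrane, had 24.0 ± 2.82, and Kash5, its dynein adaptor of the outer membrane, had 4, 7 and 2 reads.

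Regulators of meiotic entry were unequal. The X-linked Taf7l, a germ cell subunit of the TFIID complex, had 296, 379 and 366 RPKM. Stra8, which is induced by retinoic acid at meiotic entry, had 381, 251 and 252 RPKM, highest in replicate 1. Rbm46, an RNA-binding partner of the MEIOC and YTHDC2 complex, had 310.1, 237 and 268 RPKM, while Meioc and Ythdc2 had 92.4 ± 20.1 and 43.5 ± 4.96. Meiosin, the partner of STRA8, listed as Gm4969, had only 6, 10 and 2 reads. Mybl1 and Tcfl5, factors known for pachytene transcription, had 9.58 ± 1.56 and 8.09 ± 1.24 RPKM.

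RNA regulators of germ cells and the piRNA pathway summed to 10113, 10985 and 11132 CPM, of which Dazl alone made up 5556, 6036 and 6527 CPM. Of 17 members, 16 had a read in every library (94.1%, against 46.9% of all nuclear protein-coding genes), and the median was 38.1 ± 1.79 RPKM. Stk31, a Tudor-domain kinase homolog, had 257, 273 and 262 RPKM, Mael had 182, 190.0 and 162, the RNA helicase Ddx4 had 165, 159 and 187, and Tex15, which acts in piRNA-directed silencing, had 127, 163 and 138. Piwil2, a cytoplasmic PIWI protein, had 64.5 ± 3.30 RPKM, whereas Piwil1, the PIWI protein of pachytene cells, had 4.34 ± 1.72 and the fetal PIWI protein Piwil4 had 14, 1 and 18 reads. Tdrd6, a component of the chromatoid body of later cells, had no read.

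**Figure D3:**
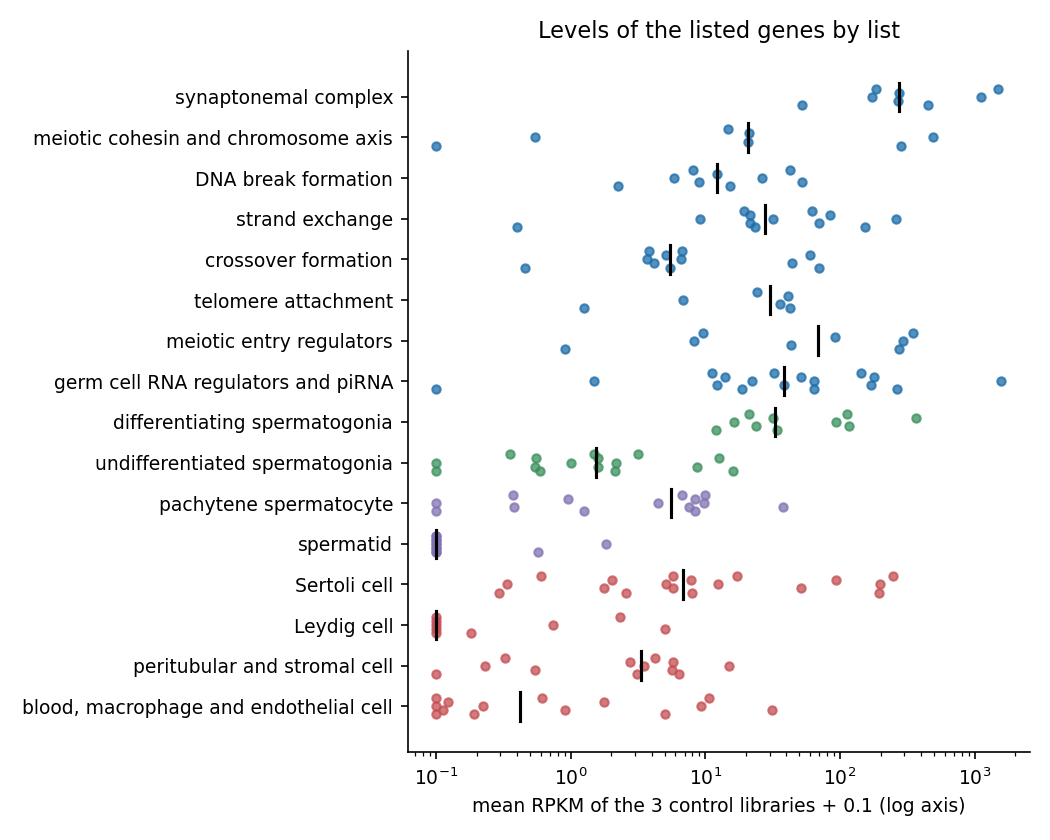
Mean RPKM over the 3 control libraries plus 0.1, on a log axis, with 1 point for each gene of 16 lists and a black bar at the median of the list; points at 0.1 are genes with no read. Synaptonemal complex genes lie furthest to the right, and the Sertoli list spreads from 0.195 to 248 RPKM. Of 12 spermatid genes 10 have no read, against 7609 of 22033 nuclear protein-coding genes.

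The 6 genes named as markers were abundant in all 3 libraries, ranking by mean RPKM between 10 and 256 of 22033 nuclear protein-coding genes. Other members of their lists, such as Rec8 and Spata22, were near the floor. Genes of other lists ranked in the same span: Dmrt1 of differentiating spermatogonia at 94, and the Sertoli genes Cst12 and Cst9 at 153 and 190. As a whole, the 61 matched genes of the 7 meiotic lists, without the RNA regulators, summed to 18498, 20520.5 and 20009 CPM. They held 1.97% of the reads, and 57 of them had a read in every library (93.4%, against 46.9% of all nuclear protein-coding genes). Of these 61 genes, 35 have a span that overlaps another annotated gene on either strand, Sycp1 and Sycp3 among them. So do 10044 of 22033 nuclear protein-coding genes. Spans include introns, so an overlap need not touch an exon. Leaving out the 35 genes lowered the mean sum from 19676 to 6766 CPM. The strand setting of the counting was not stated, so values of overlapping genes are uncertain.

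Spermatogonial genes split by stage. The 10 genes of differentiating spermatogonia were all present in every library, against 46.9% of all nuclear protein-coding genes. Their sum was 2125, 1877 and 2005 CPM and their median 34.1 ± 1.22 RPKM. Dmrt1, a transcription factor that restrains meiotic entry, had 391, 357 and 358 RPKM and ranked 94. Uchl1, a ubiquitin hydrolase of spermatogonia, had 121, 98.9 and 131 RPKM, the X-linked homeobox gene Rhox13 had 98.3, 101 and 137, and Sohlh1, a factor of differentiating spermatogonia, had 115, 98.5 and 66.6. Kit, the receptor that marks differentiating spermatogonia, had 30.6, 25.6 and 39.6 RPKM, and Dmrtb1, which acts at the switch to meiosis, had 34.0 ± 4.70.

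Genes of undifferentiated spermatogonia were lower by comparison, with a sum of 254, 255 and 336 CPM and a median of 1.08 ± 0.217 RPKM. The median of all nuclear protein-coding genes was 0.354 RPKM. Of 16 members, 10 had a read in every library (62.5%, against 46.9% of all nuclear protein-coding genes). In all 3 libraries 3 members were at or under the floor (18.8%, against 45.4%). Sall4 had 14.7, 17.3 and 15.6 RPKM and Foxo1 had 8.21, 11.8 and 17.3; both genes are also used in other germ cells. Id4, an inhibitor of transcription in stem cells, had 61, 21 and 66 reads. The stem cell receptor Gfra1 had 2, 2 and 9 reads, Zbtb16 had 14, 7 and 29, Nanos2 had 0, 0 and 2, Bcl6b had 0, 7 and 2 and Eomes had 4, 0 and 4, and Lhx1 and Pou5f1 had none. The sum of the differentiating list was 8.38, 7.36 and 5.96 times that of the undifferentiated list within the same libraries, and the sum of the 7 meiotic lists was 7.78, 9.62 and 8.55 times that of both spermatogonial lists together. Without genes that overlap another gene these ratios were 51.8, 40.5 and 40.8 and 3.76, 4.48 and 4.06. In bulk samples fewer cells of a type and less RNA per cell cannot be told apart. By immunostaining, the study counted most, but not all, of the sorted control cells as L/Z spermatocytes.

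Later germ cell genes had low sums. Of 14 pachytene genes, 8 had a read in every library (57.1%, against 46.9% of all nuclear protein-coding genes), and the list summed to 281, 238 and 232 CPM with a median of 4.04 ± 1.42 RPKM. Tbpl1, a TBP-like factor that also functions before the haploid phase, carried much of it with 166, 223 and 199 reads and 37.8 ± 2.00 RPKM. Clgn, a chaperone of the endoplasmic reticulum, had 63, 63 and 57 reads, the mRNA-binding protein Ybx2 had 27, 20 and 38, and Ldhc, the germ cell lactate dehydrogenase, had 9, 22 and 34. The linker histone gene H1f6 had 1, 0 and 4 reads, Ccna1, the cyclin of late spermatocytes, had 0, 2 and 6, and Insl6 had 0, 0 and 1, while Pgk2 and Acr had none. In the spermatid list 10 of 12 genes had no read in any library, against 7609 of 22033 nuclear protein-coding genes. Among these 10 were the protamine genes Prm1, Prm2 and Prm3 and the transition protein gene Tnp2. Tnp1 had 0, 2 and 2 reads, and Oaz3, which had 4, 0 and 5, lies within sequence shared entirely with other annotated genes.

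Somatic genes were present unevenly. The Sertoli list summed to 717, 1508 and 964 CPM and was highest in replicate 2, where it was 2.11 times the value of replicate 1. The secreted cystatins Cst12 and Cst9 had 91, 470 and 268 reads and 59, 422 and 224 reads, which gave means of 248 ± 141 and 199 ± 134 RPKM and ranks of 153 and 190. Defb19, a beta-defensin, had 50, 191 and 147 reads, Aard had 93, 351 and 192, the transcription factor Sox9 had 8, 107 and 56, and Clu, the secreted chaperone clusterin, had 32, 209 and 64. For all of these genes replicate 1 was lowest and replicate 2 highest. The transcription factor Wt1 was also highest in replicate 2 but lowest in replicate 3, with 33.2, 79.0 and 30.4 CPM. Ctsl, a lysosomal protease that other cells also use, was lowest in replicate 3 and highest in replicate 1, with 55.8, 53.8 and 44.3 RPKM.

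Not all Sertoli genes were present. Amh, the hormone of immature Sertoli cells, had 0, 0 and 2 reads, the transcription factor Gata4 had 0, 2 and 2, the FSH receptor gene Fshr had 4, 0 and 0, and the homeobox gene Rhox5 had 0, 8 and 0. In all, 13 of 18 members had a read in every library (72.2%, against 46.9% of all nuclear protein-coding genes). At or under 3 reads in all 3 libraries were 2 members (11.1%, against 45.4%), and the median was 3.86, 11.7 and 5.43 RPKM. Whether Sertoli RNA contributed to values of other genes was not tested. The synaptonemal complex sum was 13.6, 7.21 and 11.1 times the Sertoli sum, lowest in replicate 2, and 4.78, 1.64 and 2.49 times without overlapping genes.

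Leydig genes were nearly absent at this depth, with a sum of 14.2, 14.7 and 13.1 CPM and 7 of 9 members at or under the floor, where 45.4% of all nuclear protein-coding genes were. Star, which imports cholesterol into mitochondria, had 14, 18 and 11 reads, Fabp3 had 4, 9 and 7, Insl3 and Cyp11a1 each had 0, 0 and 2, and Lhcgr, Cyp17a1, Hsd17b3, Hsd3b1 and Hsd3b6 had none. Peritubular and stromal genes summed to 382, 231 and 308 CPM, highest in replicate 1, with the proteoglycan Dcn at 112, 52.9 and 96.0 CPM and the collagen Col1a2 at 108, 113 and 101 reads. The smooth muscle genes of that list were low, with Acta2 at 30, 10 and 7 reads, Tagln at 1, 0 and 0, and Cnn1 at none.

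The blood list summed to 110, 25.1 and 21.5 CPM. Haemoglobin genes carried it in replicate 1, and in the other libraries its highest member was the endothelial cadherin gene Cdh5, with 2, 15 and 19 reads. Hbb-bs had 80, 9 and 6 reads, and Hba-a2 had 24, 2 and 2, so that replicate 1 stood apart from the other libraries, although 65.8% and 86.9% of their windows were shared with other annotated genes. The leukocyte marker Ptprc had 0, 0 and 2 reads, the macrophage genes Csf1r, C1qa and Cd68 had none, Adgre1 had 0, 0 and 2 and C1qb 0, 2 and 1, and the endothelial genes Pecam1 and Vwf had 0, 2 and 1 and 0, 0 and 1. Together the 4 somatic lists summed to 1222, 1779 and 1306 CPM, and the 7 meiotic lists to 15.1, 11.5 and 15.3 times as much, or 9.78, 5.59 and 8.07 times without genes that overlap another gene.

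To see which of several related genes supplied the transcript, 26 fixed pairs of a gene and its paralog were compared within each library by the log2 ratio of their RPKM. The first gene of most pairs is known mainly from germ cells and the second from many cell types. Both genes could be measured in 19 pairs; the first gene was higher in every library in 12 of them and the second in 7, and no pair changed order between libraries. With 3 libraries a paired permutation test could not reach a low p, and none is given.

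Among the pairs in which the germ cell gene was higher, Smc1b exceeded Smc1a by 4.62, 5.29 and 6.71 log2 units, a mean of 46.5-fold. Slc25a31, the ADP/ATP carrier of germ cells, had 311, 327 and 380.4 RPKM against 19.8, 6.72 and 8.87 for Slc25a4, its broadly used relative, or 5.00 ± 0.896 log2 units. The retrogene Cstf2t, a polyadenylation factor, exceeded X-linked Cstf2 by 4.04 ± 0.254 and Pdha2 exceeded X-linked Pdha1, the pyruvate dehydrogenase subunit, by 3.90 ± 1.30, the latter on only 3, 21 and 15 reads. Tbpl1 exceeded Tbp, listed with 13576 bases, by 3.14 ± 0.269, or by 1.09 without division by length, and Taf7l exceeded Taf7 by 2.45 ± 0.0621 (SD, n = 3).

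Ribosomal protein paralogs followed the same order. Rpl39l, the germ cell copy, had 508, 783 and 756 reads against 334, 431 and 521 for the X-linked Rpl39, a log2 ratio of RPKM of 1.45 ± 0.171, and Rpl10l exceeded X-linked Rpl10 by 1.86 ± 0.209. These 2 ratios depended on the length used, with 0.67 and 0.85 without division by length and 0.27 and 0.71 with the longest transcript. For Rpl10, 57.2% of the windows were shared with other genes. Ldhc exceeded Ldha by 2.24 ± 1.16 on at most 34 reads of either gene, and Tuba3a exceeded Tuba1b by 1.23 ± 0.146 with 83.1% of the Tuba1b windows shared. H3f3b, a histone H3.3 gene, exceeded H3f3a, the other H3.3 gene, by 7.26 ± 0.623. H3f3a had only 30, 20 and 41 reads and 30.3% of its windows were shared with other annotated genes, so its level is uncertain. Stag3 and Stag2 differed least, by 0.27 ± 0.192, and without division by gene length their order was turned, at -0.26.

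In 7 pairs the broadly used gene was higher. Rad21 exceeded Rad21l, with a log2 ratio of -3.90 ± 1.18, Hspa8 exceeded Hspa2, a chaperone of spermatocytes, with -1.94 ± 0.353, and Ybx1 exceeded Ybx2 with -4.14 ± 0.628. The ratio of Pabpc6 to Pabpc1 was -7.54 ± 1.17, that of Cox6b2 to Cox6b1 was -3.94 ± 0.565 and that of H2afx to H2afz was -2.53 ± 0.359. Ccnb3, a cyclin of meiosis, stood at 37.3 ± 5.44 RPKM against 51.3 ± 3.67 for Ccnb1. Further log2 ratios kept their direction but moved by more than 1.5-fold without division by length, to 2.75 for Cstf2t, 3.24 for Pdha2, 1.17 for Ldhc, -5.25 for Rad21l, -2.64 for Hspa2, -3.29 for Cox6b2 and -8.57 for Pabpc6. With the longest transcript, those of Ccnb3 and H2afx became -1.23 and -3.26, and those of Ldhc, Pabpc6 and Cox6b2 became 1.58, -8.71 and -3.22. Where 1 gene was at or near the floor no ratio was formed: Rec8 against Rad21, Pgk2 against Pgk1, Ccna1 against Ccna2, Sycp2l against Sycp2, Eef1a2 against Eef1a1 and Hils1 against H1f0. Gapdhs and Gapdh were both at or under the floor.

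**Figure D4:**
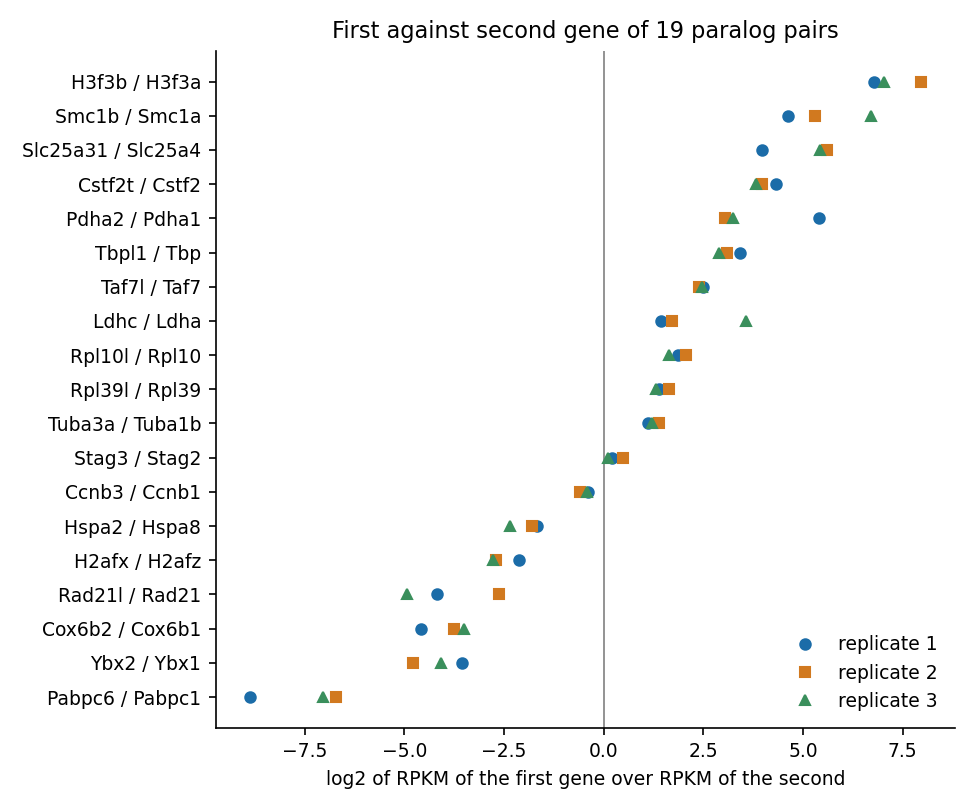
Log2 ratio of RPKM of the first over the second gene for the 19 pairs with both genes measured, with 1 point for each control library and a grey line at equal levels. The points of each pair lie on 1 side of the line, 12 pairs to the right and 7 to the left; those of Stag3 and Stag2 and of Ccnb3 and Ccnb1 lie closest to it.

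Housekeeping families of protein synthesis and respiration had medians above the 0.354 RPKM of all nuclear protein-coding genes. The 88 cytosolic ribosomal protein genes summed to 57849.7, 55694 and 59024 CPM, or 5.75% of the reads, with a median of 315 ± 17.8 RPKM. Nuclear-encoded respiratory chain genes summed to 21022, 21419 and 23232 CPM over 96 genes, with a median of 91.4 ± 1.95 RPKM. The 7 genes that the table lists as protein-coding for the TRiC chaperonin, which folds tubulin and actin, were all present, with a median of 155 ± 7.37 RPKM, and 50 proteasome genes had a median of 50.5 ± 4.16. Splicing factors of the hnRNP and SR families had a median of 65.6 ± 4.14 over 31 genes and translation initiation factors 30.9 ± 0.338 over 55.

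Glycolytic genes were low beside these. The 16 genes summed to 220, 219 and 205 CPM, with a median of 2.51 ± 0.622 RPKM. The median of the respiratory chain list was 28.3, 42.2 and 42.9 times as high in the 3 libraries. Ldhb had 12, 62 and 9 reads, the hexokinase Hk2 had 91, 96 and 85 and the aldolase Aldoa had 34, 40 and 44. Gapdh was listed at 0 reads in all 3 libraries, although genes that most cells use were otherwise measured: of 20 such genes it was the only one at or under the floor, and Actb had 1124, 1630 and 1727 reads. Of the Gapdh windows, 27.8% were shared with other annotated genes, and the treatment of reads with several alignments was not stated, so an absence of Gapdh transcript cannot be read from this 0. Pgk1, with 8, 22 and 25 reads, had 68.0% of its windows shared.

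Replication genes had a median of 22.6 ± 0.801 RPKM. Of 31 members, 30 had a read in every library (96.8%, against 46.9% of all nuclear protein-coding genes). Pcna, the sliding clamp, had 423, 593 and 588 reads. Of 101 core and variant histone genes, 68 were at or under the floor in every library (67.3%, against 45.4% of all nuclear protein-coding genes). Most genes of this family make mRNAs that end without a poly(A) tail. Whether this lowered their counts was not tested. The variant genes H3f3b at 812 ± 91.5 RPKM, H2afv at 172 ± 12.5 and H2afz at 149 ± 21.7 led the family.

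Translation elongation factors included the gene that the series deletes in its other group. Eef1g (ENSMUSG00000071644, chr19:8967041-8978479), the structural subunit of the eEF1B complex, had 291, 430 and 378 reads and 88.4, 90.1 and 86.7 RPKM, a range of 1.04-fold between libraries in CPM, with 64.3% of its windows shared with other annotated genes. Eef1a1, which delivers aminoacyl-tRNA, had 181, 209 and 219 RPKM, and Eef1b2, the exchange factor subunit, had 207, 194 and 186; their ranges overlapped, and 60.6% of the Eef1a1 windows but 5.98% of the Eef1b2 windows were shared. The other exchange factor subunit Eef1d stood lower at 25.3 ± 6.25 RPKM. Eef2, the translocase, had 73.2, 54.8 and 56.5 RPKM, and Eef1a2, the muscle and neuron form, had 0, 1 and 0 reads.

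The median level of X-linked genes lay within the range of single autosomes. The X chromosome held 2.96%, 3.16% and 3.27% of the reads and the Y chromosome 0.10%, 0.103% and 0.107%. Among protein-coding genes with at least 10 reads over the 3 libraries, 476 X-linked genes had a median of 6.43 ± 0.299 RPKM and 10235 autosomal genes one of 5.29 ± 0.0159, a ratio of 1.16, 1.22 and 1.27 in the 3 libraries. Over all gene classes the ratio was 1.21, 1.27 and 1.31. The size of the ratio depended on the minimum count, with a mean of 1.65 at 1 read and 1.09 at 50 reads. Medians of single autosomes ran from 3.38 RPKM for chromosome 7 to 9.53 for chromosome 18, a range that contains the X.

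The X-linked protein-coding genes with the highest levels were Ndufa1, then Rpl36a at 451 ± 20.2 RPKM, 1700013H16Rik at 385 ± 46.1, Fmr1nb, a testis antigen gene, at 364 ± 30.8, Taf7l at 347 ± 44.9, Hprt, of purine salvage, at 203 ± 13.1, Rpl39 at 188 ± 26.6, Gm364 at 184 ± 19.8, Pgrmc1 at 182 ± 17.3 and Tmsb4x at 171 ± 62.6. The ranges of Fmr1nb, Taf7l and 1700013H16Rik overlapped. Of 183 Y-linked protein-coding genes, 15 reached 10 reads. Eif2s3y, a translation initiation factor subunit needed for spermatogonia, was the highest by CPM with 437, 587 and 636 reads, followed by the helicase gene Ddx3y with 285, 340 and 399, Zfy1 with 106, 221 and 195 and Zfy2 with 113, 174 and 166. Xist, the RNA of the inactive X in females, had 5, 12 and 4 reads over 17946 bases.

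Long noncoding RNA genes were led by Malat1, a nuclear RNA found in most cells, with 1189, 1261 and 1129.7 CPM. Cct6a, which the table lists among noncoding genes although it encodes a TRiC subunit, followed with 419 CPM, and Ndufb1-ps, listed likewise, with 362. The testis transcripts 1700020I14Rik and 1700001L05Rik had 34.4, 27.4 and 30.1 RPKM and 28.0, 22.0 and 30.1 RPKM.

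The 3 libraries agreed closely for abundant genes. Across the 7883 genes that passed edgeR's filter on low counts, which held 97.1% of the reads, Pearson's r of log2(CPM + 1) was 0.935 between replicates 1 and 2, 0.934 between 1 and 3 and 0.947 between 2 and 3, and Spearman's rho was 0.923, 0.923 and 0.939. These are coefficients across genes, which are not independent replicates. Between 90.5% and 93.0% of these genes lay within 2-fold between a pair of libraries on this scale. Chi-square values between pairs, divided by their degrees of freedom, ranged from 6.37 to 8.78 for genes whose summed count in the pair reached 20 reads. The measure takes each read as an independent draw, which amplification copies are not. It therefore cannot show whether the pairs differed beyond sampling noise.

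The common biological coefficient of variation, estimated by edgeR, was 0.224. The spread of CPM fell with depth: its median coefficient of variation was 73.1% over 2187 nuclear protein-coding genes with at least 10 and under 30 reads in all, 24.6% over 2580 genes with at least 100 and under 300, and 9.30% over 145 genes with 3000 or more. Values of Rad21l, Mei4 or the undifferentiated spermatogonial genes, on far fewer reads, are therefore far less precise than those of Sycp1 or Dazl.

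**Figure D5:**
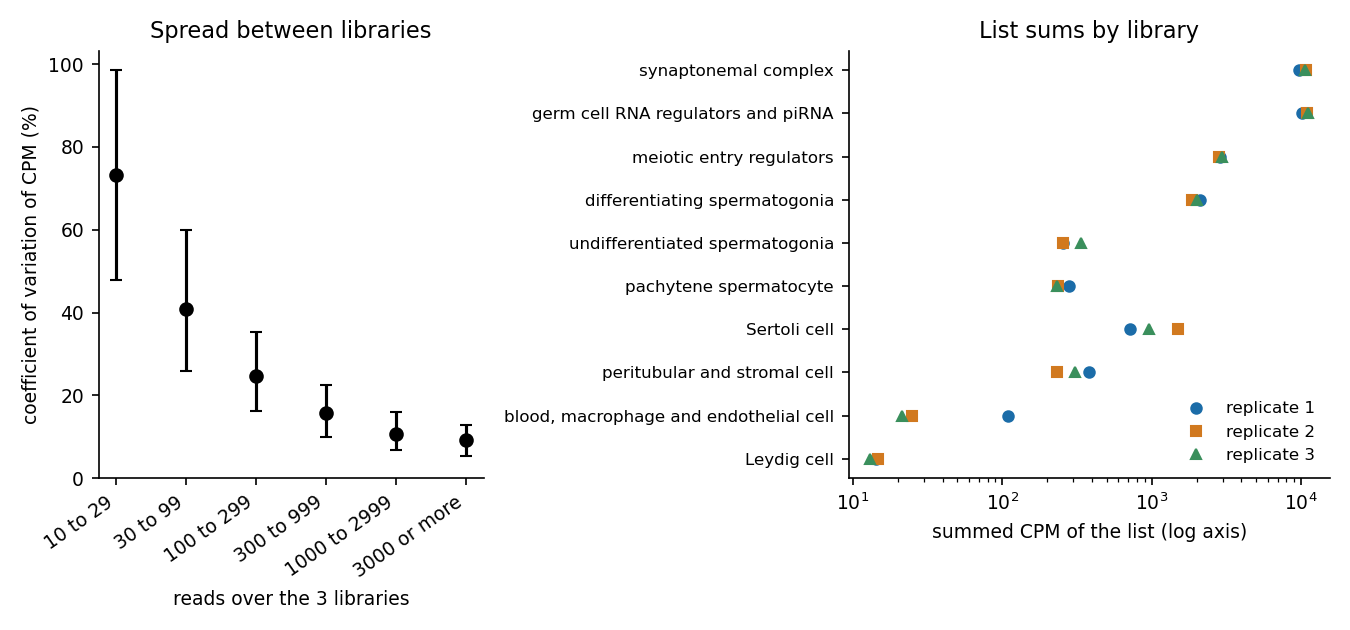
Left, median coefficient of variation of CPM between the 3 control libraries by number of reads, with bars from the first to the third quartile of genes; right, summed CPM of 10 lists on a log axis, with 1 point for each library. The spread falls from 73.1% to 9.30%, and the Sertoli and blood lists are the ones whose libraries lie farthest apart.

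Among genes averaging 100 reads or more, the largest ratio between libraries was that of Rpl7a, a ribosomal protein gene, with 17, 838 and 8 reads and 65.9% of its windows shared. The pseudogenes AC121151.1, Gm16200, Gm9701, Gm28438 and Rps15a-ps6 came next or close to it, with ratios from 5.16 to 18.2 between the highest and lowest CPM, and 99.0% of the Gm28438 windows were shared. Oxr1, an oxidation resistance gene, had 31, 253 and 210 reads, and Sumo2, a protein modifier, had 165, 288 and 53. Cst9 and Clu of the Sertoli list completed these 10 genes, with ratios of 4.94 and 4.51. Oxr1, Cst9 and Clu shared no window with other genes.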

How the data were processed

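RNA-seq libraries of 3 control L/Z spermatocyte samples were analysed. The authors trimmed reads with fastp, aligned them to GRCm38 with HISAT2 2.2.1 and counted them with featureCounts 2.0.6, and deposited unscaled counts for each Ensembl gene and library. DESeq2 is also named in the submitters' processing notes. Annotation release, strand, the treatment of multiply aligned reads and whether reads or fragments were counted are not given in the sources used here. The sources name 2 different amplification kits. Samples were grouped by title. The listed gene lengths equalled the exon union of GENCODE M21 for 98.0% of 54495 shared genes. CPM used library totals; RPKM used these lengths. Shared sequence is the percentage of 50-base windows of the longest GENCODE M21 transcript found in another gene. Dispersion was estimated with edgeR 4.0.16 in R 4.3.3 (TMM, filterByExpr, intercept only), and other values with Python 3.11.15. The calculation of levels, thinning, shared windows and dispersion was tested on simulated data. Only one group was described, so no test was made. The gene lists and members were chosen with earlier results of these data known. The genes named were the 15 highest by CPM, the 20 highest nuclear protein-coding genes by RPKM, up to 6 leading members and the near-absent members of each list, measurable paralog pairs, the 10 most variable genes, 5 noncoding and 10 X-linked genes; other genes, such as members of functional families, Y-linked genes and Gapdh, were chosen after their values were seen. Promoter windows were taken from RefSeq for 20814 genes. Results for a few genes are not reported here.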

Additional observations from a re-analysis of the deposited data

How the results depend on the processing

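TMM and RLE scaling moved none of the cell type, meiotic and elongation factor sums by as much as 1 SD (sums of the other functional families were not rescaled) and kept the same 20 genes highest by RPKM, whereas ranking by CPM kept 9 and the longest transcript as length, an alternative chosen after seeing the data, kept 16. Without mitochondrial and rRNA reads in the total, the nuclear protein-coding share was 96.2% and the sums were 22810.5 CPM for the meiotic, 2648 for the spermatogonial and 294 for the later germ cell lists. Without genes that overlap another, sums were 6766, 1653, 87.1 and, for somatic lists, 922 CPM. Over members with at least 10 reads the median RPKM was 30.7 for meiotic, 14.5 for spermatogonial, 8.63 for later germ cell and 5.96 for somatic lists, and with the longest transcript as length the meiotic median was 35.4. At least 4 reads left 11926 genes detected. The ratio of X-linked to autosomal medians was 1.65 at 1 read and 1.09 at 50. Mean Pearson r was 0.946 with a pseudocount of 5 and 0.916 over all genes with a read, and the common coefficient of variation was 0.380 without the filter; leaving out 1 replicate gave 0.934 to 0.947 and 0.206 to 0.233. Stag3 against Stag2 reversed to -0.26 without division by length. No paired analysis was possible because only 1 group was described. Depth limits genes under about 100 reads.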
